A study of Homo sapiens with 6 samples.

Results

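The zinc finger genes described here are the rows of the table with a symbol of the form ZNF plus a number, whose average across the 6 libraries was 5 TPM or more. TPM corrects a gene's reads for its length and gives them per 1000000 transcripts of the library. The rule took 178 of the 448 ZNF rows among 17280 genes. It left out 1 row by name, 142 rows between 1 and 5 TPM and 127 rows under 1 TPM. RNA came from floating sphere cultures of the human cell line CAL-27, derived from a squamous carcinoma of the tongue, in 3 libraries titled LF3 and 3 titled CON. LF3 is an inhibitor of the contact between beta-catenin and TCF4, and the series design gives an exposure of 24 h; CON is described as a normal control. The treatment field of the same LF3 libraries names elesclomol with copper instead, so the groups follow the titles and which agent was given cannot be told apart here. No genotype difference is given, and both groups come from 1 line.

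Most ZNF genes encode proteins with arrays of C2H2 fingers, short folds held by a zinc ion that together read a DNA sequence. Many also carry a KRAB domain, which recruits the corepressor TRIM28 and, through it, the histone methyltransferase SETDB1 and HP1 proteins to silence chromatin, above all at transposable elements. Others carry a SCAN domain, which pairs such proteins, and some members bind RNA or ribosomes instead of DNA. LF3 acts on the nuclear end of Wnt signalling, where beta-catenin and TCF factors activate target genes.

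The members were chosen by level and not by difference, but ZNF114 was singled out because its difference was already known to be among the largest, so its values are a description with no test. Depth is unknown, since TPM keeps none. Whether replicates came from different cultures is not stated in the labels; a p-value here reflects library-to-library spread alone, possibly technical. Correlations of log2(TPM + 1) over the tested genes were 0.996 to 0.997 between libraries of a group and 0.863 to 0.867 between libraries of different groups. In bulk RNA, fewer cells of a type and less RNA per cell cannot be told apart. Of 8 squamous markers 7 reached 1 TPM, KRT14 being the exception, and the list summed to 1085 to 1128 TPM in LF3 libraries, against 856 to 889 TPM in CON libraries. Its members went both ways, with 4 called higher and 2 lower: KRT5 averaged 454 TPM in LF3 and 102 TPM in CON, and KRT17 averaged 58.8 TPM in LF3 and 200 TPM in CON. Of 5 blood markers only CD68 reached 1 TPM; the list summed to 45.4 to 49.5 TPM in LF3 libraries and to 329 to 341 TPM in CON libraries, with PTPRC at 0 in LF3 and 0.013 TPM in CON. Of 4 endothelial markers only CDH5 reached 1 TPM, and the list summed to 6.24 to 7.26 TPM in LF3 libraries and to 0.41 to 0.57 TPM in CON libraries. Of 5 fibroblast markers 3 reached 1 TPM, with sums of 6.81 to 7.69 TPM in LF3 libraries and 14.8 to 15.7 TPM in CON libraries. None of 3 neural markers reached 1 TPM. The part of these markers in the results was not tested.

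ZNF114 stood apart from every other member. It measured 222.91, 239.07 and 234.72 TPM in the LF3 libraries, against 2.82, 3.17 and 2.73 TPM in the CON libraries. The groups did not overlap, and the 3 values of each group lay close together. The means were 232 ± 8.36 TPM in LF3 and 2.91 ± 0.232 TPM in CON (SD, n = 3 each), a ratio of 79.9. ZNF114 thus met the level rule of 5 TPM through LF3 alone, so the direction of its difference is fixed by the rule. The difference was 5.90 ± 0.059 (limma standard error) on the log2(TPM + 1) scale, and it was 5.66 after median-ratio scaling, which sets the median gene of every library to a common level, and 5.81 after quantile normalization. It ranked 2 among the 12195 tested genes and 1 among the members.

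The other 177 members had differences from -1.76 (ZNF678) to 1.94 (ZNF512B), with a median of 0.14, an interquartile range from -0.30 to 0.60 and an SD of 0.759. ZNF114 lay 3.96 above the next member, a gap wider than the whole range of 3.70 among the others. Its distance from their mean of 0.17 was 7.55 of their SDs. Of those 177 members, 138 differed by less than 1 in either direction and 94 by less than 0.5. ZNF114 was the most abundant member in LF3, with 7.55 ± 0.365% of the members' summed TPM, and ranked 173 of 178 in CON, with 0.109 ± 0.00673%.

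**Figure D1:**
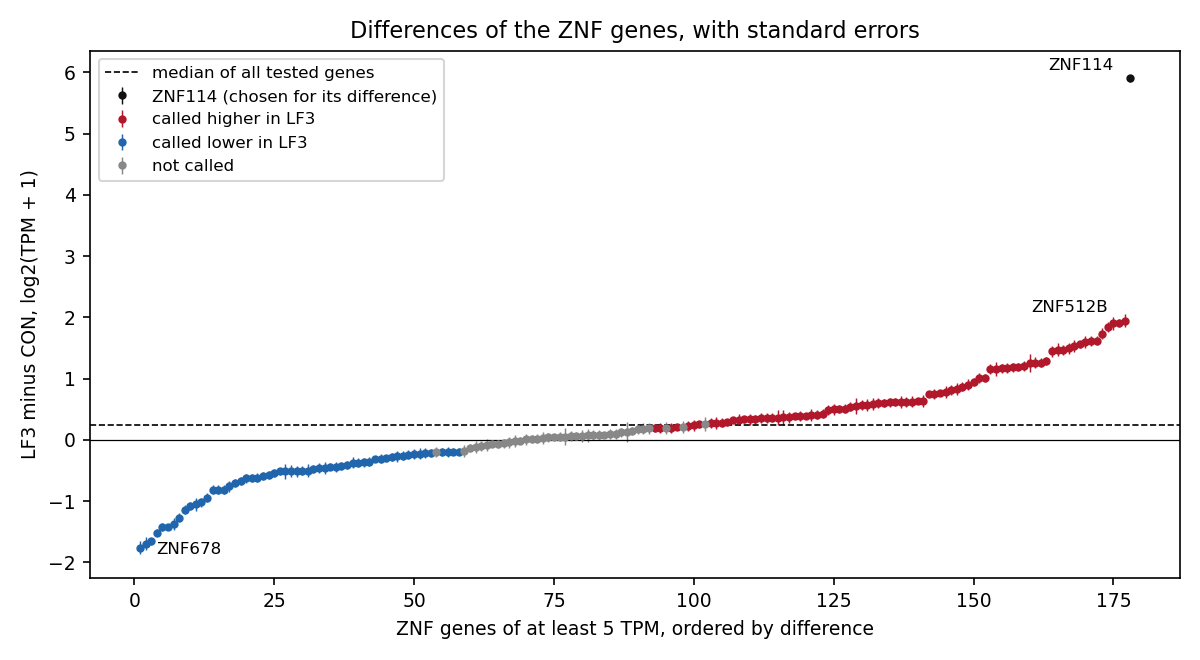
The 178 ZNF genes ordered by their difference, LF3 minus CON in log2(TPM + 1), with limma standard errors; colours give the call at an adjusted p under 0.05 and the dashed line is the median of all tested genes, 0.24. ZNF114 at 5.90 stands above a continuous run from -1.76 to 1.94.

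ZNF114 (NCBI gene 163071) encodes a protein of 417 residues in the longest coding transcript of GENCODE v29, with 3 C2H2 fingers and a KRAB-like stretch. Of the 50-base windows of that transcript, 2.97% also occur in transcripts of other genes, with both strands counted. Its tested neighbours in the RefSeq gene order had smaller differences, in both directions. LIG1, the ligase that joins DNA in replication, had a difference of 1.42 ± 0.076. ZSWIM9 had 0.55 ± 0.069 and CARD8, an inflammasome sensor, 0.75 ± 0.114, and all of these were called higher. On the other side the nearest gene, ODAD1, averaged 0.22 TPM in LF3 and 1.17 TPM in CON and was not tested. Beyond it EMP3, a membrane protein gene, had -0.78 ± 0.073 and TMEM143 -0.65 ± 0.110, both called lower.

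LF3 and CON were compared by limma on log2(TPM + 1), with genes of at least 1 TPM tested and a gene called at a Benjamini-Hochberg adjusted p under 0.05. Of the 178 members, 83 were called higher (46.6%) and 57 lower (32.0%), and 38 were not called. Without ZNF114, which was chosen for its difference, 82 of 177 were called higher (46.3%) and 57 lower (32.2%). Over all tested genes, 53.2% were called higher and 32.3% lower; among those of at least 5 TPM the shares were 57.2% and 30.2%. The members' share called lower was thus near the background and the share called higher below it. After median-ratio scaling 59 members were called higher and 79 lower, against 42.6% and 42.7% of all tested genes. The groups did not overlap for 79.2% of members, against 86.2% of all tested genes.

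Most called differences of the members were under 1 on the log2 scale. Of the members, 28 (15.7%) were called with a log2 difference of at least 1, against 20.8% of tested genes. With -1 or less there were 12 (6.74%), against 11.1%. Among tested genes of at least 5 TPM these shares were 23.1% and 9.77%. The difference between these shares was not tested. The members' median difference was 0.16, against 0.24 over all tested genes and 0.31 over those of at least 5 TPM. It turned to -0.096 after median-ratio scaling and to -0.11 after quantile normalization. There the median of all tested genes was -0.0055 and 0.026, and that of those of at least 5 TPM was 0.055 and 0.028. A direction for the family therefore depends on the scaling.

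The level rule shapes these counts. The 31 members under 5 TPM in CON were all called higher and the 8 under 5 TPM in LF3 all lower, as a mean of 5 TPM requires the other group to be higher. Among the 139 members at 5 TPM or more in both groups, 52 were called higher and 49 lower. Just inside the threshold, ZNF773, ZNF155 and ZNF689 had means over the 6 libraries of 5.02, 5.07 and 5.09 TPM. Just outside it, ZNF530, ZNF449 and ZNF720 had 4.99, 4.88 and 4.88 TPM.

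**Figure D2:**
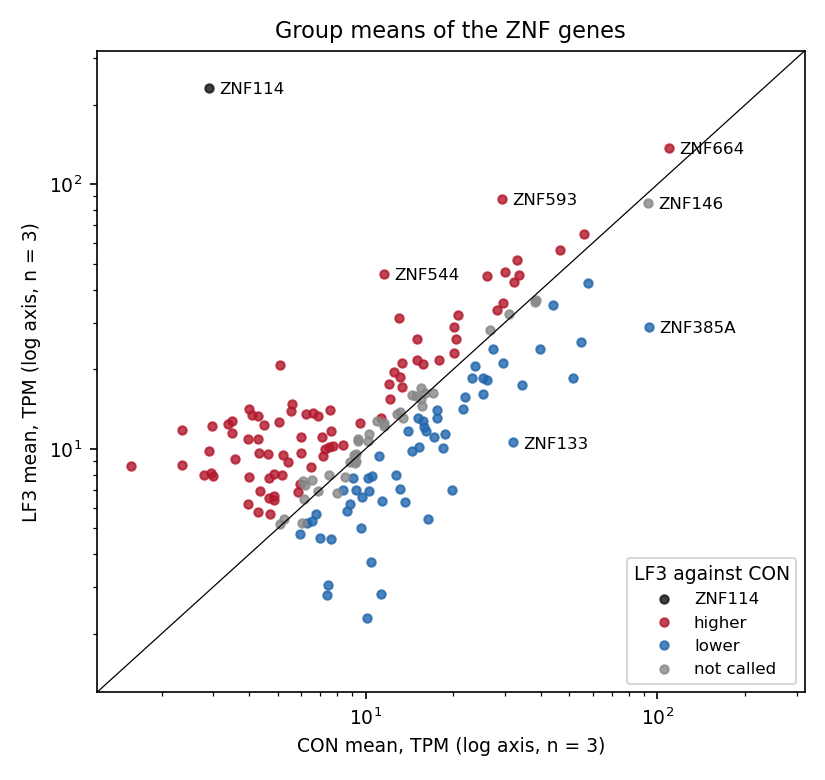
Mean TPM of each ZNF gene in LF3 (vertical, log axis) against CON (horizontal, log axis), n = 3 each, coloured by call; the line marks equal means. ZNF114 lies at 232 TPM in LF3 and 2.91 TPM in CON, far from the line, while ZNF664 and ZNF146 lie near it at the high end.

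The summed TPM of the members was 3078 ± 75.3 in LF3 and 2659 ± 47.5 in CON. Without ZNF114 the sums were 2846 ± 77.8 in LF3 and 2656 ± 47.3 in CON. Library LF3 replicate 3 had the lowest sum of its group, 2991 TPM, and the lowest value of its group for 100 of 178 members; its part in the results was not tested, and the values without it are among the alternatives in the closing section. The median member had a coefficient of variation of 6.24% in LF3 and 6.60% in CON.

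After ZNF114, the largest rises were those of ZNF512B, ZNF544, ZNF689, ZNF189, ZNF45, ZNF367, ZNF587B, ZNF346 and ZNF593. ZNF512B, which binds the NuRD chromatin remodelling complex, measured 12.01, 11.16 and 12.20 TPM in LF3 libraries, against 2.90, 1.87 and 2.27 TPM in CON libraries. The difference was 1.94 ± 0.110. Like ZNF114, ZNF689, ZNF45, ZNF367, ZNF587B and ZNF346, it was under 5 TPM in CON and met the level rule through LF3 alone. The direction of all of these is therefore fixed by the rule. ZNF544, with a KRAB-like stretch and 12 fingers, measured 47.02, 44.34 and 46.40 TPM in LF3 libraries, against 10.48, 12.25 and 11.85 TPM in CON libraries. Among these genes it had the highest level in LF3 apart from ZNF114 and ZNF593, and it rose by 1.91 ± 0.065 (limma adjusted p = 4.21e-10). ZNF189, with a KRAB-like stretch and 16 fingers, measured 21.09, 21.72 and 19.51 TPM in LF3 libraries, against 4.66, 4.97 and 5.67 TPM in CON libraries. The groups were far apart, with a rise of 1.84 ± 0.080.

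ZNF689, ZNF45 and ZNF587B, also KRAB-like, rose by 1.90, 1.73 and 1.61. ZNF689 averaged 8.60 ± 0.696 TPM in LF3 and 1.58 ± 0.352 TPM in CON, ZNF45 averaged 12.2 ± 1.36 TPM in LF3 and 2.98 ± 0.0289 TPM in CON, and ZNF587B averaged 12.4 ± 0.427 TPM in LF3 and 3.38 ± 0.362 TPM in CON. Of the windows of ZNF587B, 38.2% occur in other genes, 19.6% in ZNF814 alone, so its value is uncertain. ZNF367, with 2 fingers and no KRAB-like stretch, averaged 12.7 ± 0.633 TPM in LF3 and 3.48 ± 0.192 TPM in CON.

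The largest falls were those of ZNF678, ZNF841, ZNF385A, ZNF133, ZNF550, ZNF581, ZNF483, ZNF516, ZNF397 and ZNF217. ZNF385A, a regulator of p53 target choice and of messenger RNA localization, measured 29.83, 27.45 and 29.34 TPM in LF3 libraries, against 92.44, 88.63 and 98.92 TPM in CON libraries. It fell by 1.66 ± 0.054 on the log2 scale (limma adjusted p = 3.16e-10), which took it to rank 22 of the members in LF3, against rank 2 in CON. ZNF133 measured 10.78, 10.56 and 10.43 TPM in LF3 libraries, against 31.96, 31.67 and 32.53 TPM in CON libraries. The 3 values within each group differed little, and the fall was 1.51 ± 0.054 on the log2 scale. ZNF581 measured 18.19, 19.04 and 18.44 TPM in LF3 libraries, against 52.09, 49.31 and 52.53 TPM in CON libraries. The fall was 1.42 ± 0.050 on the log2 scale.

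ZNF678, the lowest of all members in LF3, averaged 2.29 ± 0.376 TPM in LF3 and 10.1 ± 0.909 TPM in CON. ZNF841 averaged 2.82 ± 0.469 TPM in LF3 and 11.3 ± 1.18 TPM in CON. Both, and ZNF516 and ZNF397, met the level rule through CON alone. ZNF550 and ZNF483, both KRAB-like, averaged 5.45 ± 0.0961 and 7.02 ± 0.882 TPM in LF3, against 16.4 ± 0.505 and 19.8 ± 1.90 TPM in CON. ZNF516, whose mouse counterpart activates genes of brown fat, and ZNF397, a SCAN-like member, fell by 1.27 ± 0.073 and 1.14 ± 0.076 on the log2 scale.

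**Figure D3:**
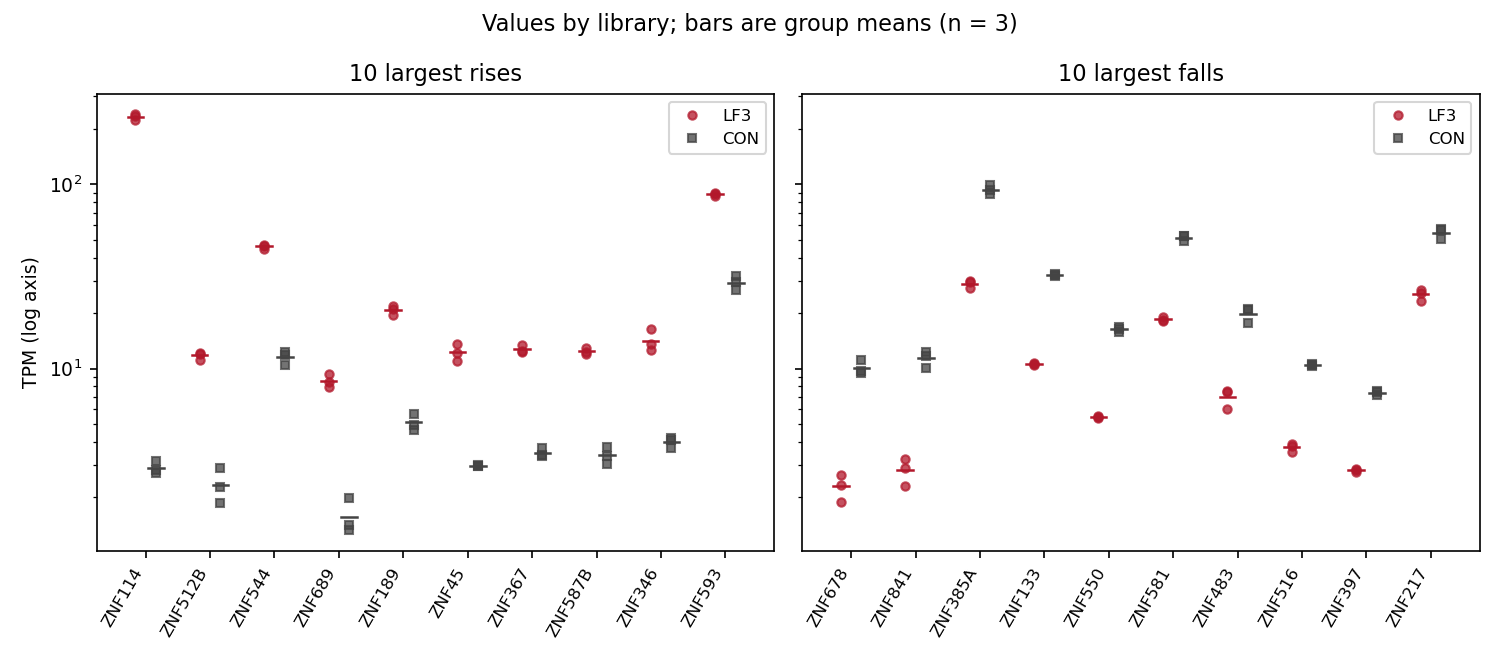
TPM (log axis) of the members with the 10 largest rises and the 10 largest falls, 1 point a library, LF3 left of CON for each gene, bars at the group means. ZNF114 averages 232 TPM in LF3 and 2.91 TPM in CON. The genes were taken only from called members whose groups do not overlap.

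Some members were grouped into small lists by role, in reading DNA or otherwise. The counts of these lists stand against 57.2% called higher and 30.2% called lower among all tested genes of at least 5 TPM. The 3 members tied to ribosome assembly and quality control were called higher, 2 of them also after median-ratio scaling. ZNF593, a factor in late assembly of the large ribosomal subunit, measured 89.80, 86.61 and 87.99 TPM in LF3 libraries, against 31.76, 26.74 and 29.30 TPM in CON libraries. Its groups were far apart, with a rise of 1.56 ± 0.060 (limma adjusted p = 1.02e-09). Of its windows 92.6% occur in transcripts of AL391650.1 on the opposite strand, so without strand the 2 cannot be told apart. ZNF598, a ubiquitin ligase that marks collided ribosomes, averaged 46.5 ± 2.12 TPM in LF3 and 30.1 ± 2.58 TPM in CON. ZNF622, which acts in maturation of the same subunit, averaged 56.5 ± 3.08 TPM in LF3 and 46.2 ± 2.87 TPM in CON, a difference of 0.28 that became 0.015 after median-ratio scaling and -0.083 after quantile normalization.

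Of 5 members tied to RNA processing, 4 were called higher and 1 lower, and after median-ratio scaling 3 were called higher and 1 lower. ZNF346, which binds double-stranded RNA, rose by 1.60 ± 0.097, ZNF326, of a complex that couples splicing to elongation, by 0.82 ± 0.085, and ZNF830 by 0.57 ± 0.103. ZNF638, a splicing regulator, had overlapping groups, at 36.02, 36.12 and 28.50 TPM in LF3 libraries and 27.69, 30.00 and 26.72 TPM in CON libraries. Its call (limma adjusted p = 0.0255) was lost under both scalings, where the difference was negative. The call was also lost with all genes tested (limma adjusted p = 0.0639) and without the limma variance trend (0.0507). Leaving out LF3 replicate 1, LF3 replicate 2, CON replicate 1 or CON replicate 3 lost it too (0.0637 to 0.0998). ZNF106, an RNA-binding protein gene, fell by 0.32 ± 0.050 on the log2 scale. ZNF207, which binds BUB3 and was listed for the spindle, had a difference of 0.25 that became -0.015 and -0.10 under the 2 scalings.

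Of the genes linked to NuRD or its ATPase CHD4, all 4 tested were called higher, against 53.2% of all tested genes, and 3 of 4 after median-ratio scaling. ZNF410, which activates CHD4 transcription, measured 44.68, 46.84 and 43.91 TPM in LF3 libraries, against 26.33, 25.57 and 26.48 TPM in CON libraries, a rise of 0.77 ± 0.049 with no overlap. CHD4 itself measured 186.72, 182.96 and 180.99 TPM in LF3 libraries, against 85.03, 86.62 and 88.98 TPM in CON libraries. Of the ZNF410 windows 83.5% occur in other genes' transcripts, mostly those of AC005520.1 on the same strand, so its value is uncertain. ZNF219 rose by 0.95 ± 0.066, and ZNF827, below the level rule at 1.65 TPM in LF3 and 1.13 TPM in CON, by 0.32 ± 0.120, a call lost after median-ratio scaling.

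Of the 3 partners of the chromatin reader ZMYND8, 2 were called lower and 0 higher. ZNF592 fell by 0.30 ± 0.059 and ZNF532 by 0.23 ± 0.079 on the log2 scale, while ZNF687 had overlapping groups and was not called, at -0.099 ± 0.074. After median-ratio scaling and quantile normalization all 3 were called lower, ZNF687 at -0.36 and -0.40 (limma adjusted p = 0.000864 and 0.000489). The call of ZNF532 was lost without LF3 replicate 3 (limma adjusted p = 0.0507) and without CON replicate 1 (0.0523), and ZNF687 was called lower without CON replicate 1 (0.0468). ZNF143, an activator of small nuclear RNA and many other promoters, measured 17.01, 17.04 and 14.22 TPM in LF3 libraries, against 25.71, 25.01 and 24.95 TPM in CON libraries. It fell by 0.62 ± 0.073 on the log2 scale, while its paralog ZNF76 had a difference of 0.34 ± 0.074, a call lost under both scalings.

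Of 6 tested genes with epithelial or carcinoma roles, 2 were called higher, 2 lower and 2 not. ZNF217, an oncogene amplified in breast and other carcinomas, measured 26.78, 25.84 and 23.18 TPM in LF3 libraries, against 56.65, 56.86 and 50.21 TPM in CON libraries. It fell by 1.08 ± 0.068 on the log2 scale, and ZNF185, a LIM domain gene of the actin cytoskeleton, by 0.44 ± 0.053. ZNF281, a factor of the epithelial to mesenchymal transition, rose by 0.61 ± 0.069, and ZNF365, below the level rule, by 0.56 ± 0.118. ZNF148 had overlapping groups and a difference of 0.054, which was -0.19 and called lower after median-ratio scaling. ZNF703 was not called, and ZNF750, an epidermal differentiation factor, was at 0.030 TPM in LF3 and 0.43 TPM in CON and was not tested.

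ZNF451, a SUMO ligase, fell by 0.94 ± 0.070 on the log2 scale, at 17.71, 18.24 and 16.30 TPM in LF3 libraries, against 34.17, 37.37 and 31.71 TPM in CON libraries. Of the 3 genes linked to the methyltransferases G9a and GLP, ZNF644 rose by 0.51 ± 0.075 and ZNF518B, below the level rule, by 0.98 ± 0.113, while ZNF518A fell by 0.76 ± 0.092 on the log2 scale. The hypoxia linked ZNF395 and ZNF292 rose by 0.40 ± 0.048 and 0.60 ± 0.076; 41.7% of the ZNF395 windows are shared with its neighbour FBXO16, and its call was lost after quantile normalization. The most abundant members besides ZNF114 were ZNF664 and ZNF146. ZNF664 averaged 137 ± 3.67 TPM in LF3 and 110 ± 4.54 TPM in CON, a call lost under both scalings, and ZNF146 averaged 85.2 ± 7.65 TPM in LF3 and 93.0 ± 5.60 TPM in CON and was not called as deposited.

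Promoters of the members were searched on both strands for CTTTGAT or CTTTGAA, the core read by TCF factors, and for CACGTG, the E-box read by MYC and related factors; the motifs cannot overlap each other. RefSeq (GRCh38.p14) gave 205 promoter windows of 300 bases for 153 of 178 members; the shares that follow do not cover ZNF114. The TCF core stood in 2.93% of them, against 6.86% of all 35116 promoters, and the E-box in 5.85%, against 7.26%. Of 87 promoters of members called higher, 1 held the TCF core (1.15%) and 8 the E-box (9.20%). Of 69 promoters of members called lower, 3 held the TCF core (4.35%) and 2 the E-box (2.90%). Of 49 promoters of members not called, 2 held the TCF core and 2 the E-box (4.08% each). These counts are small, and their differences were not tested. Below are 4 windows with a match from members that rose or fell, for a view of where the motifs, in capitals, lie; all are on the plus strand of GRCh38.p14. ZNF593 is at chr1:26169658-26169957, ZNF133 at chr20:18288277-18288576, ZNF143 at chr11:9460762-9461061 and ZNF451 at chr6:57089938-57090237.
ZNF593: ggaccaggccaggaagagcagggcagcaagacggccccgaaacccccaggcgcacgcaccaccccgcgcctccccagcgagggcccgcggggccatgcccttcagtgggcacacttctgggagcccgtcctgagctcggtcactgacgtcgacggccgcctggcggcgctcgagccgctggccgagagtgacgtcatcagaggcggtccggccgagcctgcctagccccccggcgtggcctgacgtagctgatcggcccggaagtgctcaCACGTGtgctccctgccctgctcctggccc
ZNF133: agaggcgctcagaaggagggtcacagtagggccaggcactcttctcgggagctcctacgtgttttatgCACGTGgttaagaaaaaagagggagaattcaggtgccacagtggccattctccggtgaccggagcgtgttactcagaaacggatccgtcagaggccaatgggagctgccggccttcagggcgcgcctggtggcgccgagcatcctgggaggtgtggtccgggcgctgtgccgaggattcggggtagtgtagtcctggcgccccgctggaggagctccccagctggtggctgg
ZNF143: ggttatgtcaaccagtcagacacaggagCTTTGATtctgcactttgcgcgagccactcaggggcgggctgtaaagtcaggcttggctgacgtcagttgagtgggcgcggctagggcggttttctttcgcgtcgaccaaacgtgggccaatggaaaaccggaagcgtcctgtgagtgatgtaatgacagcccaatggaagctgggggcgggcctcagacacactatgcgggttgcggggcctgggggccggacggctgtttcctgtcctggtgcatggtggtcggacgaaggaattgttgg
ZNF451: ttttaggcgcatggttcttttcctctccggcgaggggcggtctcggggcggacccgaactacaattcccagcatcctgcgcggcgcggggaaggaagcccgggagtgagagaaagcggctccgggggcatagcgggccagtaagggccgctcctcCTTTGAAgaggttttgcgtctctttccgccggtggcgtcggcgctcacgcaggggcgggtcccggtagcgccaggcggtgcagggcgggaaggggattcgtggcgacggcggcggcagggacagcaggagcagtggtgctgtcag
The first pair holds an E-box, in a member that rose and in one that fell, and the second pair holds a TCF core, in members that both fell. A match is a description of letters and not a binding site.

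Members were also split by protein class, to be read against 53.2% higher and 32.3% lower over all tested genes and, after median-ratio scaling, 42.6% and 42.7%. Of the 84 with a KRAB-like stretch, 38 (45.2%) were called higher and 27 (32.1%) lower, with a median difference of 0.13, and after median-ratio scaling 26 higher and 37 lower. Of the 94 without, 45 (47.9%) were called higher and 30 (31.9%) lower, with a median of 0.19, and after scaling 33 higher and 42 lower. Of 14 SCAN-like members, 4 were called higher and 5 lower, and after scaling 3 higher and 7 lower. Members with 10 or more fingers, 79 in number, had 30 called higher (38.0%) and 32 lower (40.5%) and a median of 0.039, while the 97 with 1 to 9 fingers had 53 higher (54.6%) and 23 lower (23.7%) and a median of 0.26. After median-ratio scaling the first class had 20 higher and 42 lower and the second 39 higher and 35 lower. The medians after quantile normalization were -0.24 for the first class and 0.0063 for the second. No difference between classes was tested. ZNF462 had the most fingers, 34, and ZNF185 and ZNF330 had no match to the finger pattern.

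The ZNF rows from 1 to under 5 TPM, 142 of them, had 78 called higher (54.9%) and 25 lower (17.6%), with a median of 0.40, and after median-ratio scaling 65 higher and 42 lower. In the related families outside the rule, ZKSCAN and ZSCAN had 10 of 20 called higher (50.0%) and 6 lower (30.0%), and ZFP had 5 of 10 in each direction. The shares called higher in these 3 groups lie near the 53.2% of all tested genes. Their shares called lower were 17.6%, 30.0% and 50.0%, in the same order, against 32.3% of all tested genes. ZBTB had 10 of 34 called higher (29.4%) and 14 lower (41.2%), and after median-ratio scaling 8 higher and 22 lower.

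**Figure D4:**
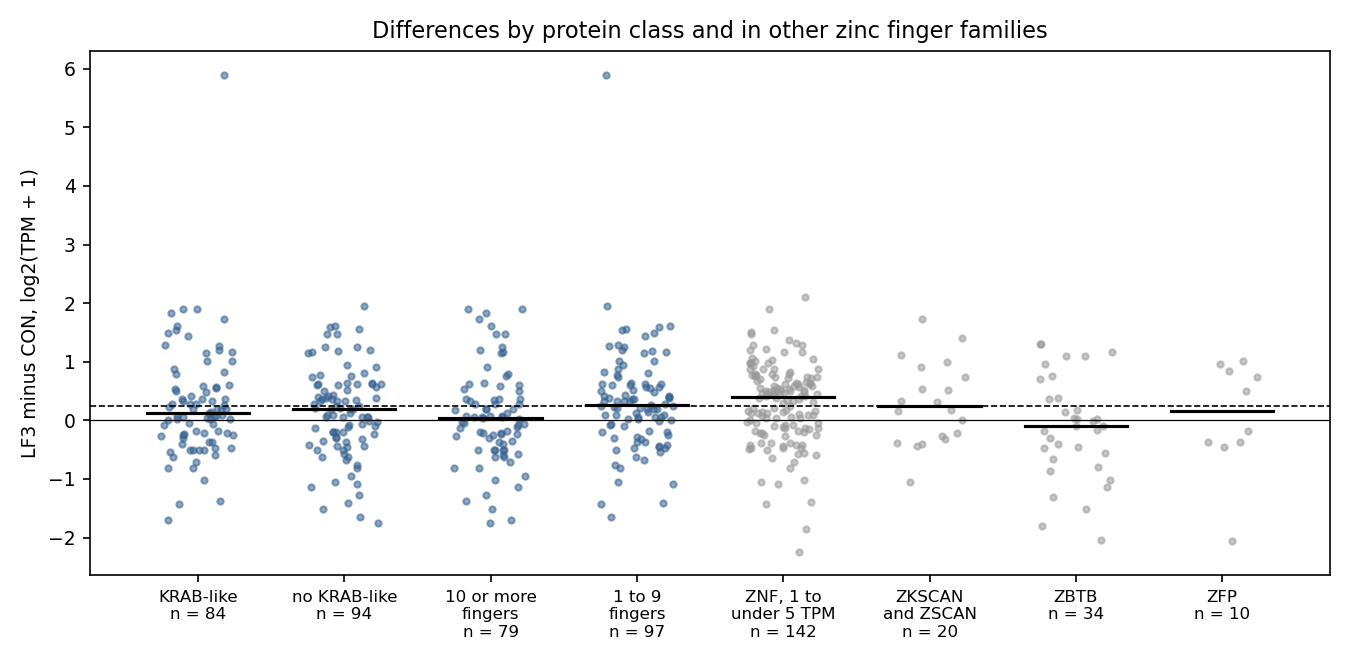
Differences, LF3 minus CON in log2(TPM + 1), of ZNF members by protein class (blue), and of lower ZNF rows and other zinc finger families (grey); each point is a gene, bars are medians and the dashed line is the median of all tested genes. The single point at 5.90 in the KRAB-like and the 1 to 9 finger classes is ZNF114, and the class medians lie between -0.096 and 0.40.

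Many ZNF genes lie in clusters, and 26 pairs of members were direct neighbours in the RefSeq gene order. Both were called higher in 7 pairs and both lower in 3, the calls were opposite in 4, and 1 or both were not called in 12. These counts stand against 46.6% called higher and 32.0% called lower among all members. Whether neighbours were more alike than other members was not tested. The longest run, of 5 members, was chosen here after its values were seen. In it ZNF552 and ZNF587B rose by 1.28 ± 0.070 and 1.61 ± 0.083. ZNF586 beside them fell by 0.37 ± 0.078 on the log2 scale, and ZNF776 and ZNF587 were not called. Of the ZNF552 windows, 14.7% occur in ZNF587B on the same strand. How shared reads were counted is not given, so the values of ZNF552 and ZNF587B may not be independent. ZNF544 rose by 1.91 beside ZNF274, a KRAB-like member that fell by 0.54 on the log2 scale.

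A list of corepressors through which KRAB and other zinc finger proteins act was measured beside them. Of the 31 listed genes in the table, 26 (83.9%) were called higher and 4 (12.9%) lower, against 53.2% and 32.3% of all tested genes, with a median difference of 0.97, against 0.24. After median-ratio scaling 22 (71.0%) were called higher and 5 (16.1%) lower, against 42.6% and 42.7%. The list was chosen with earlier results known, and its difference from other genes was not tested. TRIM28 averaged 241 TPM in LF3 and 127 TPM in CON, a rise of 0.92 ± 0.042. SETDB1 had a smaller difference of 0.31 ± 0.070, a call lost after median-ratio scaling. DNMT1, the maintenance DNA methyltransferase, measured 103.34, 104.62 and 104.42 TPM in LF3 libraries, against 23.35, 21.75 and 24.66 TPM in CON libraries. KDM1A, a histone demethylase, measured 449.06, 441.87 and 397.38 TPM in LF3 libraries, against 104.49, 104.51 and 102.16 TPM in CON libraries. Both had groups far apart, with rises of 2.12 ± 0.052 and 2.04 ± 0.047. Of the NuRD subunits listed, MTA2, RBBP7, GATAD2A and HDAC1 rose by 1.53, 1.28, 1.32 and 0.83. CHD4, HDAC2, RBBP4, MBD2 and MBD3 were also called higher, with rises of 1.07, 0.97, 1.14, 0.51 and 1.11. MTA3, CHD3 and GATAD2B fell by 0.51, 0.42 and 0.78 on the log2 scale, and MTA1 was not called. PPHLN1, of the HUSH silencing complex, rose by 1.29 ± 0.046.

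**Figure D5:**
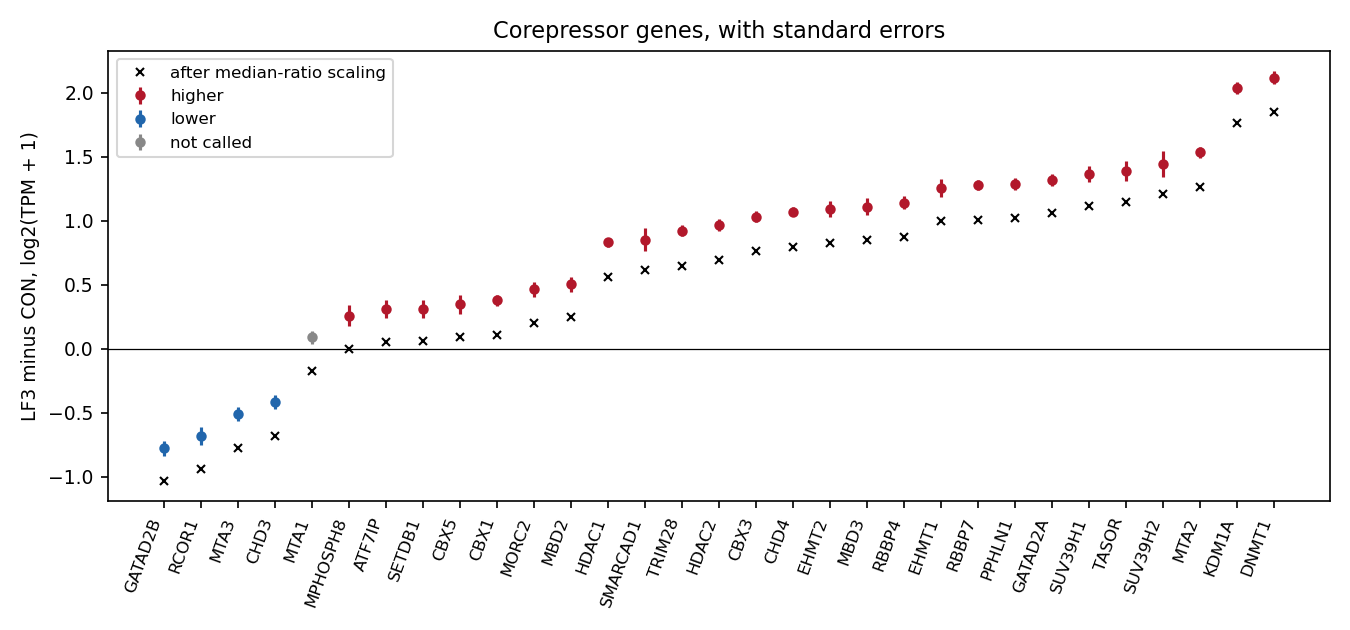
Differences, LF3 minus CON in log2(TPM + 1), of 31 corepressor genes with limma standard errors, coloured by call, and the same after median-ratio scaling (crosses). Differences run from -0.78 (GATAD2B) to 2.12 (DNMT1), and scaling shifts all of them down.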

How the data were processed

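The authors deposited 1 table of TPM values, written to 2 decimals and summing to 1000000 in every library, per the file's own values. Per the labels' protocols, Trizol total RNA was sequenced on BGISEQ500 from 1 end for 50 bases. HISAT, Bowtie2 and GRCm38.p6 are named in the submitters' processing notes. The last is a mouse build, although the gene identifiers are human. The sources used here do not give strand or how shared reads were counted. TPM divides reads by length and fixes the total, so abundant genes that change move all others.

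Tests used log2(TPM + 1), a scale that understates changes of low genes. The 12195 genes averaging 1 TPM or more were tested with limma 3.58.1 in R 4.3.3 (moderated statistic with trend, two-sided, Benjamini-Hochberg, threshold 0.05, no block). An exact permutation test cannot go below 0.1 with 3 against 3. The procedure was tested on simulated data.

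Members, lists and tests were chosen with earlier results of these data known. Named are ZNF114, the 10 largest called rises and falls without overlap and the role lists. Also named are the genes nearest the 5 TPM threshold, the 3 most abundant members and up to 8 corepressors by adjusted p. TRIM28, SETDB1 and the NuRD genes HDAC2, RBBP4, MBD2, MBD3, MTA1, MTA3, CHD3 and GATAD2B were added after their values were seen. Protein classes were computed from GENCODE v29 coding sequences with Python 3.11.15, in place of RefSeq proteins. KRAB-like means at least 13 of 40 consensus residues, a limit set after the scores were seen, and can miss divergent domains; SCAN-like means at least 24 of 61. Figures used matplotlib 3.10.9.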

Additional observations from a re-analysis of the deposited data

How the results depend on the processing

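Alternatives covered 2 scalings, a smaller pseudocount (0.5 or 0.1), testing all genes or those of at least 5 TPM, other limma variances, a replicate block, other level rules and leaving out each library. The members' median difference, 0.16, turned to -0.096 after median-ratio scaling and -0.11 after quantile normalization, and that of all tested genes turned to -0.0055 after median-ratio scaling. With members of at least 10 TPM, 35 were called higher and 34 lower, with a median of 0.075. With at least 2 TPM, a larger set, 140 were called higher and 77 lower, with a median of 0.20. With at least 5 TPM in both groups, 52 of 139 were called higher and 49 lower, with a median of 0.060. Over all tested genes, 53.2% were called higher and 32.3% lower as deposited. Leaving out 1 library gave 77 to 86 members called higher and 53 to 58 lower. ZNF622 turned to -0.083 after quantile normalization; ZNF207, ZNF638 and ZNF148 turned to -0.015, -0.026 and -0.19 after median-ratio scaling and to -0.10, -0.11 and -0.20 after quantile normalization. The cause was not tested. ZNF146 was called lower under both scalings, under the block and without LF3 replicate 2 (limma adjusted p = 0.0464). Of 909 values of 57 named genes, 880 kept their direction and their side of the threshold. Many of these genes were named for a large difference or a small adjusted p, which favours stable calls. Over all members, 24 calls were lost and 22 gained after median-ratio scaling. After quantile normalization 23 were lost and 25 gained. A filter of 5 TPM gives no count for ZNF rows of at least 1 TPM. Depth is unknown, which limits what can be said of low genes.

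With the replicate number as a block, 86 members were called higher and 59 lower, 5 calls were gained and 0 lost. Deviations of same-numbered libraries from their group means correlated by 0.048, 0.11 and 0.16. CON replicate 1 correlated best with LF3 replicate 2, and differently numbered libraries gave -0.17 to 0.074. Correlations this small cannot decide whether the libraries were paired. No pairing is stated in the labels, so the samples were not taken as pairs.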

Other observations

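The ZNF genes with the most uneven replicates were ZNF430 in LF3, with a coefficient of variation of 25.3%, and ZNF75A in CON, with 29.1%. ZNF511 was called higher as deposited, at 64.8 ± 1.64 TPM in LF3 and 56.1 ± 1.11 TPM in CON, and called lower after quantile normalization, the 1 member whose call changed direction under an alternative. No member was at 0 TPM in any library, while 47 to 56 of the 448 ZNF rows were listed at 0 in LF3 libraries and 32 to 39 in CON libraries.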
